A study of Mus musculus with 12 samples.

Results

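The acyl-CoA thioesterases of the Acot family were examined in the kidney cortex of mice with unilateral ureteral obstruction (UUO), an operation that ties off 1 ureter and leads to tubular injury and fibrosis of that kidney. The members, Acot1, Acot2, Acot3, Acot4, Acot7, Acot8, Acot9, Acot11, Acot12 and Acot13, were chosen by their symbols and not by their values, and are 10 of the 23183 gene symbols measured. RNA was sequenced from kidneys taken on day 7 from male C57BL/6N mice of 6 to 7 weeks. The 4 groups, with 3 libraries in each, were the contralateral (CL) and the obstructed (UUO) kidneys of wild-type (Acot12+/+) mice and the CL and UUO kidneys of Acot12-/- mice. The knockout was made with an RNA-guided endonuclease and is carried by every cell of the animal, so neither the kidney nor any cell type in it was targeted alone. All 12 kidneys came from operated mice, and the control is the unobstructed kidney of such mice, not a kidney of a sham-operated one. The comparisons asked how the family changed after obstruction and whether other members were higher where Acot12 was lost.

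Acyl-CoA thioesterases cleave the thioester bond of an activated fatty acid, which releases the free acid and coenzyme A (CoA), while acyl-CoA synthetases run the opposite reaction. The family thereby sets how much acyl-CoA is at hand for oxidation or lipid synthesis in each compartment of the cell. The proximal tubule, the main cell type of the renal cortex, takes most of its energy from fatty acid oxidation and is rich in mitochondria and peroxisomes. Type I members (Acot1 to Acot6 in mice) are closely related and arose by gene duplication. The type II members share a hotdog fold instead, and among them Acot11 and Acot12 also carry a lipid-binding START domain. ACOT12 is a cytosolic enzyme of liver and kidney that hydrolyses acetyl-CoA.

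Acot1 to Acot4 lie side by side on the plus strand of chromosome 12 in GRCm38, with Acot2 at 83987861 to 83993873, Acot1 at 84009490 to 84018371, Acot4 at 84038379 to 84048601 and Acot3 at 84052144 to 84060402. The same 120 coding bases of these 4 genes are shown. They were taken from the longest run of bases identical between Acot1 and Acot2, where a short read cannot separate these genes, and do not stand for the whole transcripts. They lie in exon 3 (exon 4 in Acot3) and are printed 5′ to 3′ on the plus strand, with each base unlike Acot1 in capitals.
Acot1 (chr12:84017023-84017142): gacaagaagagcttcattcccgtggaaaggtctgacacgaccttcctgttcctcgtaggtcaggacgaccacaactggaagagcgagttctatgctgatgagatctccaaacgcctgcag
Acot2 (chr12:83992745-83992864): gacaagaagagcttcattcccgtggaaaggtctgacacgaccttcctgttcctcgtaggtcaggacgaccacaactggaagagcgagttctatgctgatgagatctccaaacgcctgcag
Acot3 (chr12:84058670-84058789): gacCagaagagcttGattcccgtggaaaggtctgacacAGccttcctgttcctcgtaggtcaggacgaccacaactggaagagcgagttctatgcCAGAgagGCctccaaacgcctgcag
Acot4 (chr12:84043440-84043559): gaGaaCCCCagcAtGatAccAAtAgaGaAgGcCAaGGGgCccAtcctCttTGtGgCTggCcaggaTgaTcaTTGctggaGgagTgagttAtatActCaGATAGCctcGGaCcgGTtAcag

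Acot1 and Acot2 had 0 differences in this stretch because it was chosen so. Acot3 differed from Acot1 at 10 and Acot4 at 50 of its 120 bases. Over the aligned coding sequence Acot1 was 95.6% identical to Acot2, with a longest identical run of 273 bases, 84% identical to Acot3 and 74.8% identical to Acot4. Of all 100-base windows of a transcript, 21.9% for Acot1, 17.1% for Acot2, 4.44% for Acot3 and 0.36% for Acot4 also occurred in another member of the family. Acot9 shared 0.968% of its windows with Acot10, and Acot7, Acot8, Acot11, Acot12 and Acot13 shared 0. The levels of Acot1 and Acot2 are therefore uncertain where fragments from one could be counted for the other.

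The other members lie apart from this cluster: Acot12 on chromosome 13 at 91741512 to 91786148 (plus strand, 15 exons), Acot13 on chromosome 13 at 24817948 to 24831540 (minus strand), Acot11 on chromosome 4 at 106744555 to 106804998 (minus strand), Acot7 on chromosome 4 at 152178134 to 152271855 (plus strand), Acot8 on chromosome 2 at 164792765 to 164804882 (minus strand) and Acot9 on chromosome X at 155262443 to 155297654 (plus strand). Acot12 overlaps the antisense gene 4833422C13Rik, Acot11 the gene Fam151a and Acot8 the gene Snx21, each on the opposite strand. Acot3 and Acot4 overlap Gm49366 on their own strand and 4732463B04Rik on the opposite one. The library kit keeps the strand, but whether the counting used it is not given in the sources used here.

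Levels are FPKM (fragments of RNA per kilobase and per depth of sequencing), a scale per length on which genes can be compared by level. The low values of each library imply a depth of 12400000 to 16300000 fragments for CL and of 18500000 to 23000000 for UUO libraries. The implied fragments per member and library ran from 62 for Acot3, a counting error of 13%, to 4300 for Acot13. Differences between groups were tested in limma with values as log2(FPKM + 1), and genes were called at an adjusted p under 0.05 over the 13243 genes tested. All 10 members passed the filter on low values. Differences on this scale understate changes of genes at low FPKM. Pearson correlations between replicates were 0.942 to 0.984 in Acot12-/- CL and 0.974 to 0.992 in the other groups. Acot12-/- CL replicate 2 stood apart from the other Acot12-/- CL libraries, and results that rest on it are given with and without it. Markers of the proximal tubule were present in every library, with a level summed over 10 genes of 2934 to 6288 FPKM for CL and of 205 to 1231 FPKM for UUO libraries.

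**Figure D1:**
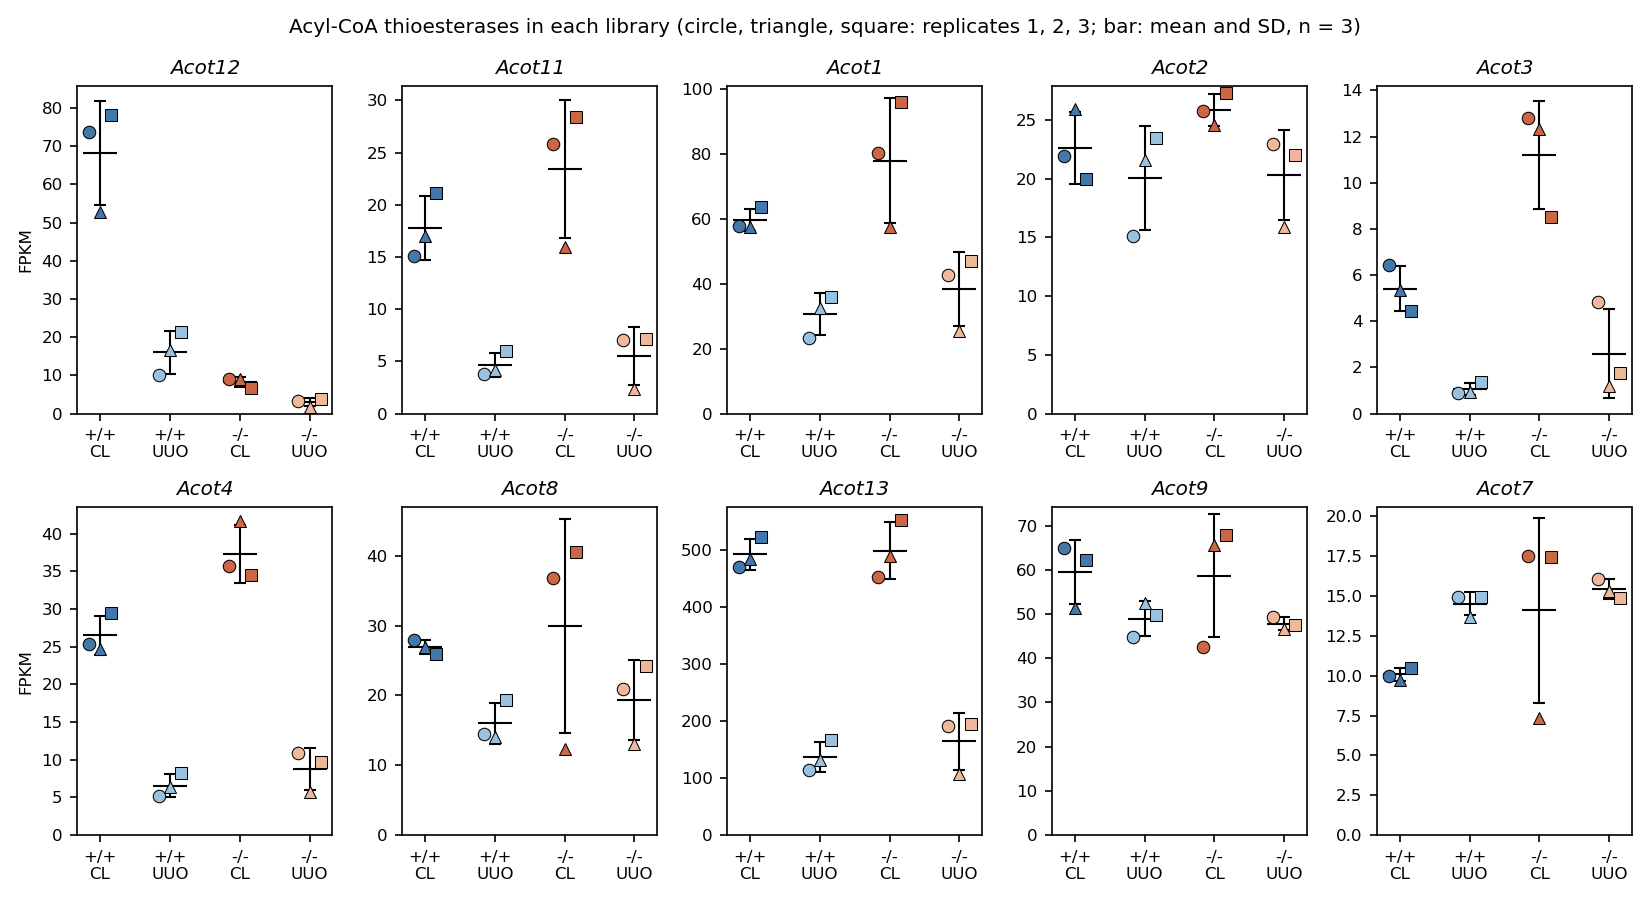
FPKM (y axis, linear, from 0) of each thioesterase gene in the 12 libraries by group (x axis). Circles, triangles and squares are replicates 1, 2 and 3, and bars give the mean and SD (n = 3). Acot12 is at 52.7 to 78.1 FPKM in Acot12+/+ CL and at 1.80 to 3.86 in Acot12-/- UUO, and Acot12-/- CL replicate 2 is below the other Acot12-/- CL libraries for Acot1, Acot7, Acot8 and Acot11.

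After obstruction 6 of the 10 members fell in Acot12+/+ kidneys and the same 6 genes fell in Acot12-/- kidneys: Acot12, Acot11, Acot13 and the type I genes Acot1, Acot3 and Acot4. No member was called higher. The other members, Acot2, Acot7, Acot8 and Acot9, did not pass the test in either genotype. Of all genes tested 47.5% were called in Acot12+/+ kidneys, 23.6% higher and 23.9% lower, and 53.7% were called in Acot12-/- kidneys, 26.6% higher and 27.2% lower. CL and UUO libraries did not overlap for 8 members in Acot12+/+ kidneys, 1 higher and 7 lower after UUO, beside 35.5% of all genes higher and 35.8% lower without overlap. In Acot12-/- kidneys 7 members were lower and 0 higher without overlap, beside 27.6% and 27.8% of all genes. An unadjusted p under 0.05 was met by the same 6 members in each genotype, and by 54.4% and 58.9% of all genes. The median log2 difference of the members from CL to UUO was -1.30 in Acot12+/+ and -1.14 in Acot12-/- kidneys, beside 0.01 and -0.01 for all genes tested. The comparisons in the 2 genotypes share no library, but the fit pools the spread over all groups, so their p-values are not independent. When libraries were scaled to equal totals of FPKM, the median of all genes rose by 0.65 (wild-type) and 0.47 (knockout). Of the genes called, 3161 of 6290 were lower in Acot12+/+ kidneys as deposited and 12.4% of 8450 with equal totals, which left 20.4% of 7615 lower in Acot12-/- kidneys. The members' calls then became 5 lower and 2 higher in Acot12+/+ and 5 lower and 1 higher in Acot12-/- kidneys, with Acot1 lost in both, Acot7 gained as higher in both and Acot2 gained as higher in Acot12+/+.

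Beside these falls the proximal tubule markers fell too, 9 of 10 in Acot12+/+ (median -2.17) and 10 of 10 in Acot12-/- kidneys (median -2.55). The 5 injured tubule markers had a summed level of 1001 to 5004 FPKM (CL) and 15310 to 18290 FPKM (UUO), and the 7 macrophage markers 48.8 to 153 and 558 to 768 FPKM. The part of these cell types in the thioesterase levels was not tested. In bulk cortex, fewer cells of a type and less RNA per cell cannot be told apart.

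Acot12 was the second most abundant member in Acot12+/+ CL kidneys, where its libraries overlapped those of Acot1 and Acot1 overlapped Acot9. In Acot12+/+ UUO it was at 23.4% of its CL mean (68.19 ± 13.58 and 15.98 ± 5.667 FPKM, SD, n = 3) and stood sixth, overlapping Acot8 and Acot7. Values per mouse, here and below, take same-numbered CL and UUO libraries of a genotype as the kidneys of a mouse, which the labels do not state. On that reading the UUO kidney held 0.135 to 0.317 of the level in the CL kidney in the 3 Acot12+/+ mice. The transcript of the mutated gene also fell after UUO in Acot12-/- mice, by 1.25 on the log2 scale (SE 0.28, limma adjusted p 0.00219), and the ratio of UUO to CL was 0.200 to 0.568 in the 3 mice. The antisense gene 4833422C13Rik was instead higher in the obstructed kidneys, at 0.892 to 1.12 FPKM in wild-type CL libraries against 2.10 to 3.00 FPKM in wild-type UUO libraries, and stood at 0.731 to 1.21 and 1.63 to 2.60 FPKM in the corresponding knockout libraries.

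Acot11, the nearest relative of Acot12 in domain structure and an enzyme of long-chain acyl-CoA, had 15.1, 17.0 and 21.1 FPKM (wild-type CL) against 3.79, 4.15 and 6.01 FPKM (wild-type UUO). In Acot12-/- mice it had 25.8, 15.9 and 28.4 FPKM (CL) against 7.09, 2.31 and 7.15 FPKM (UUO). No UUO library reached the level of any CL library in either genotype, and Acot12-/- UUO replicate 2 was the lowest of all. In the knockout the difference was -1.98 on the log2 scale (SE 0.33, limma adjusted p 0.000332). Between Acot12-/- and Acot12+/+ CL kidneys Acot11 differed by 0.35 on the log2 scale (95% interval -0.37 to 1.07, limma adjusted p 0.668), so that a doubling lay within the interval. After UUO that difference was 0.11 (-0.61 to 0.83, adjusted p 1.00), and it was -0.05 with libraries scaled to equal totals. Fam151a, which overlaps Acot11 on the other strand, had 8.33, 7.72 and 17.7 FPKM (wild-type CL) against 32.8, 18.4 and 24.9 FPKM (knockout CL), and its part in the Acot11 values was not tested. The aligned coding sequences of Acot11 and Acot12 were 57.5% identical.

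The type I genes diverged although they are neighbours. Acot1, a cytosolic long-chain acyl-CoA thioesterase and a textbook target of the nuclear receptor PPARα, had 57.6, 57.5 and 63.6 FPKM (wild-type CL) against 23.3, 32.5 and 36.0 FPKM (wild-type UUO). The Acot12-/- libraries had 80.3, 57.5 and 95.8 FPKM (CL) against 42.5, 25.3 and 47.1 FPKM (UUO). CL and UUO libraries did not overlap in either genotype, and the differences were -0.96 (SE 0.25, limma adjusted p 0.00830) and -1.02 (SE 0.25, adjusted p 0.00472) on the log2 scale. With equal totals these differences became -0.24 (adjusted p 0.357) and -0.49 (adjusted p 0.0804), or -0.89 and -0.96 relative to the median of all genes, and neither was called.

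Acot2, the mitochondrial partner with the shared stretch above, had 22.0, 25.9 and 20.0 FPKM (wild-type CL) against 15.1, 21.6 and 23.5 FPKM (wild-type UUO). In Acot12-/- mice it had 25.8, 24.6 and 27.3 FPKM (CL) against 22.9, 15.9 and 22.1 FPKM (UUO). The Acot12+/+ groups overlapped, with 2 of 3 mice lower in the UUO kidney, while the Acot12-/- groups did not overlap and 3 of 3 mice were lower. Neither difference passed the test (-0.18, adjusted p 0.456, and -0.35, adjusted p 0.138), and both turned positive with equal totals (0.53, adjusted p 0.0195, and 0.18), or -0.12 in wild-type kidneys relative to the median of all genes. The ratio of Acot1 to Acot2 within a library was 2.22 to 3.18 in wild-type CL and 1.504 to 1.542 in wild-type UUO libraries. In the knockout libraries it was 2.34 to 3.51 (CL) and 1.59 to 2.13 (UUO), so the UUO libraries lay below the CL libraries in both genotypes.

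Acot4, a peroxisomal enzyme that acts on succinyl-CoA, had 25.4, 24.7 and 29.5 FPKM (wild-type CL) against 5.13, 6.33 and 8.19 FPKM (wild-type UUO). In Acot12-/- mice the levels were 35.7, 41.7 and 34.5 FPKM (CL) against 10.9, 5.66 and 9.65 FPKM (UUO). The UUO kidneys were lower, by -1.88 (SE 0.22, limma adjusted p 4.62e-05) in wild-type and -2.01 (SE 0.22, adjusted p 1.63e-05) in knockout kidneys, and each UUO kidney held 0.136 to 0.306 of the level of its CL partner. Acot3, a peroxisomal long-chain acyl-CoA thioesterase and the least abundant member in 3 of 4 groups, had 6.41, 5.34 and 4.46 FPKM (wild-type CL) against 0.887, 0.918 and 1.36 FPKM (wild-type UUO). Its Acot12-/- libraries had 12.8, 12.3 and 8.51 FPKM (CL) against 4.81, 1.21 and 1.75 FPKM (UUO). Acot3 fell, by -1.64 (SE 0.30, limma adjusted p 0.000849) and -1.87 (SE 0.30, adjusted p 0.000235) on the log2 scale, with no overlap between CL and UUO in either genotype.

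Acot8, the broad-range thioesterase of the peroxisome, did not follow its peroxisomal relatives in the test. It had 27.97, 26.97 and 26.01 FPKM (wild-type CL) against 14.5, 14.0 and 19.4 FPKM (wild-type UUO), where the groups did not overlap. The Acot12-/- libraries had 36.9, 12.3 and 40.6 FPKM (CL) against 21.0, 13 and 24.2 FPKM (UUO). The difference, with an SE of 0.36, was -0.73 in wild-type (limma adjusted p 0.117) and -0.48 in knockout kidneys (adjusted p 0.287). The SE is pooled over the groups, and Acot12-/- CL replicate 2 was at 12.3 FPKM. Without that library the differences were -0.73 (adjusted p 0.00765) and -1.0 (adjusted p 0.00228), and both were called, as were 8177 and 8388 of 13214 genes. With the mice as a fixed replicate block the difference in Acot12+/+ kidneys was called as well (adjusted p 0.016). With equal totals the values were -0.03 and 0.05. Snx21, on the other strand, was also low in Acot12-/- CL replicate 2, at 3.53 FPKM beside 9.22 and 8.37 in replicates 1 and 3.

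Acot13, a thioesterase of long-chain acyl-CoA associated with mitochondria, was the most abundant member in every group and in every library. It had 471, 484 and 524 FPKM (wild-type CL) against 114, 132 and 166 FPKM (wild-type UUO). In Acot12-/- mice it had 454, 491 and 553 FPKM (CL) against 192, 107 and 196 FPKM (UUO). The change was -1.85 (SE 0.23, limma adjusted p 7.53e-05) and -1.64 (SE 0.23, adjusted p 0.000104) on the log2 scale, and Acot13 accounted for 60.9% to 64.1% of the summed FPKM of the family in Acot12+/+ CL but 44.8% to 48.0% in Acot12+/+ UUO. In the Acot12-/- libraries the shares were 61.3% to 66.6% in CL and 45.7% to 52.4% in UUO.

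Acot9, a mitochondrial thioesterase, was not called in either genotype. It had 64.9, 51.3 and 62.2 FPKM (wild-type CL) against 44.8, 52.4 and 49.7 FPKM (wild-type UUO). The knockout levels were 42.6, 65.6 and 67.8 FPKM (CL) against 49.4, 46.6 and 47.4 FPKM (UUO). CL and UUO libraries overlapped in both genotypes, and the differences were -0.27 (95% interval -0.67 to 0.12) and -0.26 (-0.66 to 0.14). They turned to 0.45 and 0.28 with equal totals, and the difference in Acot12-/- kidneys was called without Acot12-/- CL replicate 1 (-0.47, limma adjusted p 0.0232). Acot9 was the second most abundant member in both UUO groups.

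Acot7, a cytosolic long-chain thioesterase best known from neurons, was the only member with a positive difference after UUO, although Acot2 and Acot9 in both genotypes and Acot8 in Acot12-/- kidneys were positive too with equal totals, and Acot7 itself was negative in Acot12-/- kidneys without a single library. It had 9.99, 9.74 and 10.5 FPKM (wild-type CL) against 15.0, 13.7 and 14.9 FPKM (wild-type UUO), where each UUO library lay above each CL library and the UUO kidney held 1.4 to 1.5 times the level of its CL partner. The Acot12-/- libraries had 17.5, 7.36 and 17.4 FPKM (CL) against 16.1, 15.3 and 14.9 FPKM (UUO), so replicate 2 of the CL group was far below the others. The difference, with an SE of 0.25, was 0.49 in wild-type (limma adjusted p 0.123) and 0.21 in knockout kidneys (adjusted p 0.493), and neither was called. Without Acot12-/- CL replicate 2 the first was called (0.49, limma adjusted p 0.000419), as it was with only the groups compared (adjusted p 0.00127), and the second turned to -0.17 (adjusted p 0.121). In Acot12+/+ kidneys those fits called 8177 of 13214 and 8412 of 12872 genes. With equal totals Acot7 was called higher in both genotypes (1.19, adjusted p 0.00128, and 0.74, adjusted p 0.0256), or 0.54 and 0.27 relative to the median of all genes.

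**Figure D2:**
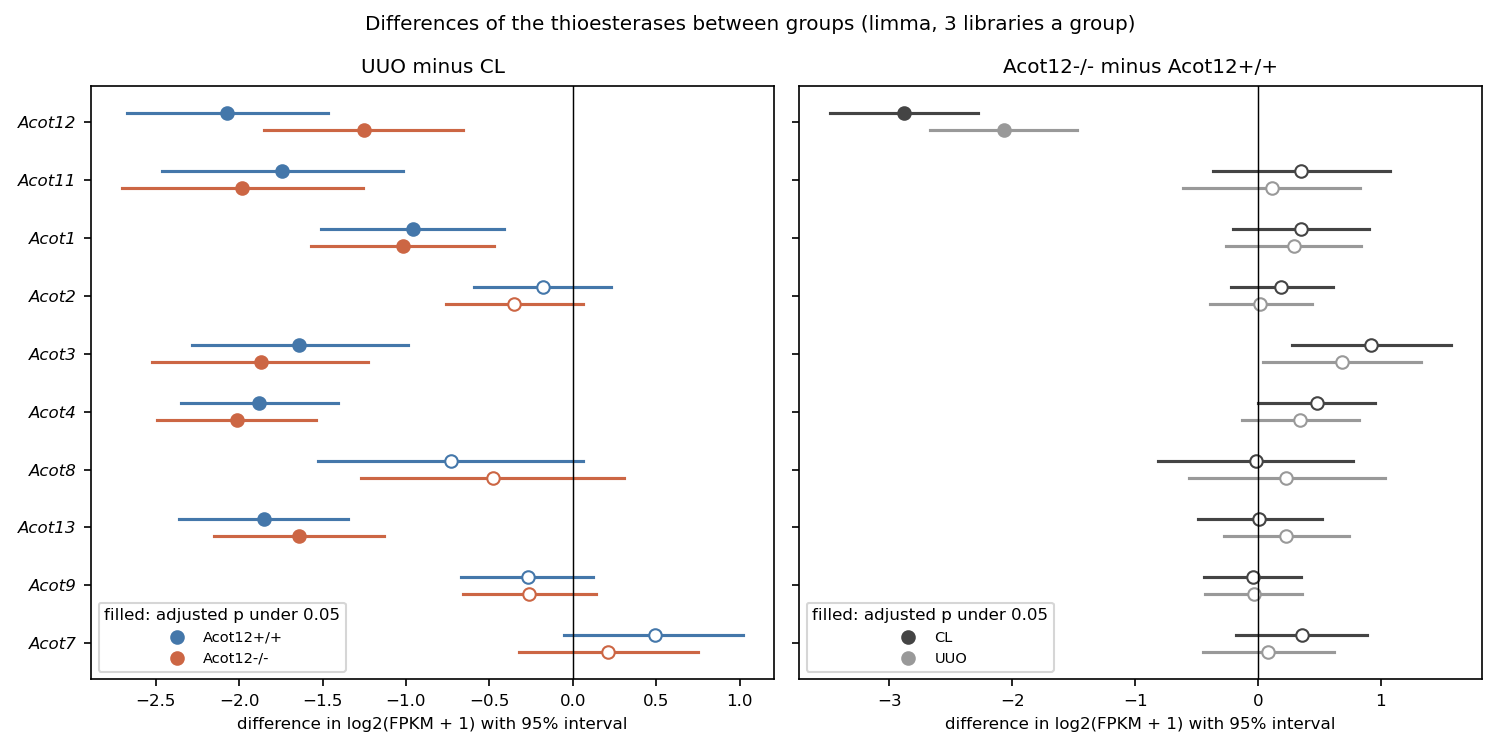
Differences in log2(FPKM + 1) (x axis) with 95% intervals from limma for each gene (y axis), UUO minus CL in each genotype on the left and Acot12-/- minus Acot12+/+ in CL and in UUO kidneys on the right, with filled points at an adjusted p under 0.05. The same 6 genes are filled and below 0 in both genotypes on the left (Acot1 is not called with libraries scaled to equal totals), and Acot12 alone is filled on the right.

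In CL kidneys Acot12 was the single member called, lower by -2.88 on the log2 scale (SE 0.28, limma adjusted p 0.000969) and at 12.2% of the Acot12+/+ mean. Of all genes tested 4.48% were called in CL kidneys and 3.36% were called lower. None of the other 9 members was called, while 3 members, Acot3 and Acot4 besides Acot12, had an unadjusted p under 0.05, as did 17.3% of all genes, and 7 of these 9 estimates were above 0, with a median of 0.35 beside 0.01 for all genes. In UUO kidneys Acot12 was again the single member called (-2.07, SE 0.28), beside 0.0151% of all genes. That call was lost with the replicate block that treats the 2 kidneys of a mouse as correlated (adjusted p 0.0657), and 17 of 20 alternatives lost it, while equal totals, a fit with no variance trend and the fit without Acot12+/+ UUO replicate 1 kept it. The other 9 members had differences of -0.03 to 0.68 there, each with an adjusted p of 1.00 in limma. Acot12 and Acot3 had an unadjusted p under 0.05, beside 2.36% of all genes. Without overlap 1 member was lower and 0 were higher, beside 6.48% and 5.5% of all genes.

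Acot3 had the largest difference of the other members. Its Acot12-/- CL libraries, at 8.51 to 12.8 FPKM, lay above its Acot12+/+ CL libraries, at 4.46 to 6.41, and the ratio of the means was 2.07. The difference was 0.92 (SE 0.30, 95% interval 0.28 to 1.57), with an unadjusted p of 0.00911 in limma and an adjusted p of 0.113, so it was not called. Over the 20 alternatives the difference ran from 0.81 to 1.09 and the adjusted p from 0.0247, without Acot12-/- UUO replicate 1, to 0.285. In UUO kidneys the difference was 0.68 (95% interval 0.04 to 1.33, limma adjusted p 1.00). There the groups overlapped, since Acot12-/- UUO replicate 1 was at 4.81 FPKM and the other Acot12-/- UUO libraries, at 1.21 and 1.75, were near the Acot12+/+ range of 0.887 to 1.36. Leaving out Acot12-/- UUO replicate 1 brought the difference in UUO kidneys to 0.27.

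Acot4 was the other member without overlap between the genotypes in CL kidneys, at 34.5 to 41.7 FPKM in Acot12-/- and 24.7 to 29.5 in Acot12+/+ libraries. Its difference was 0.48 (SE 0.22, 95% interval 0.00 to 0.95, limma adjusted p 0.286). Beside these 2 of 10 members, 8.6% of all genes tested were higher without overlap in Acot12-/- CL, and 9.73% were lower beside Acot12 alone. Acot3 and Acot4 are neighbours, and Gm49366, which overlaps both on the same strand, has no value of its own in the table. In the CL kidneys the summed proximal tubule markers were at 3316 to 6288 FPKM in Acot12-/- and 2934 to 4199 in Acot12+/+ libraries, with a median difference of 0.57 and none of 10 called. Markers of other cells were lower in Acot12-/- CL: 4 of 5 endothelial (median -0.84), 3 of 7 macrophage (-1.09), 3 of 5 lymphocyte (-0.75) and 2 of 7 fibroblast markers (-0.95) were called lower. Of all genes tested 3.36% were called lower there. With only the groups compared, 5 of 12225 genes were called in CL kidneys, 4 of them lower, against 593 of 13243 in the main fit. Most of these marker calls therefore rest on the spread pooled over all groups. Fabp4, the single gene of the fat marker list that passed the filter, was also called lower (-1.94). The other genes of that list had at most 4.36 FPKM in any library and were all highest in Acot12+/+ CL replicate 2. There Cidea was at 4.36, Adipoq at 1.62, Cidec at 1.32, Ucp1 at 1.09 and Plin1 at 0.348 FPKM. The part of fat in the Fabp4 values was not tested. The part of cell composition in the values of Acot3 and Acot4 was not tested.

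Several other genotype differences depended on Acot12-/- CL replicate 2. Acot7 differed by 0.36 between the genotypes in CL kidneys (SE 0.25, limma adjusted p 0.529). Without Acot12-/- CL replicate 2 it was called higher (0.74, adjusted p 0.00153), and its change with UUO then differed between the genotypes (interaction -0.66, adjusted p 0.0203). With that library the interaction was -0.27 (SE 0.35, adjusted p 0.909). Leaving the library out also raised the calls over all genes. For genotype in CL kidneys they went from 593 of 13243 to 2918 of 13214, of which 1536 were higher, and by the interaction from 14 to 899. Acot8 differed by -0.02 with and 0.50 without that library, and neither value was called. For Acot1 the difference in CL kidneys was 0.35 (95% interval -0.20 to 0.90), and without that library it was 0.55 (0.01 to 1.10, limma adjusted p 0.131), so that a doubling then lay within the interval. Acot11 likewise went to 0.60 (-0.16 to 1.35, adjusted p 0.232). The difference was for Acot2 0.19 (-0.22 to 0.61), for Acot13 0.01 (-0.49 to 0.52) and for Acot9 -0.04 (-0.44 to 0.35). These intervals exclude a doubling of Acot2, Acot9 and Acot13 on the log2(FPKM + 1) scale, as do those without Acot12-/- CL replicate 2, which end at 0.67, 0.26 and 0.59.

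The summed FPKM of the 9 members other than Acot12 was 700, 703 and 761 (wild-type CL) against 731, 728 and 873 (knockout CL), and the groups overlapped. After UUO it was 236, 277 and 325 in Acot12+/+ and 367, 232 and 370 in Acot12-/- kidneys, which overlapped as well. Acot13 dominates these sums. Without Acot13 and Acot12, the other 8 members summed to 219 to 237 FPKM (wild-type CL) against 237 to 320 FPKM (knockout CL), where Acot12-/- CL replicate 2 was within the wild-type range. Acot12 itself made up 6.98% to 9.53% (CL) and 4.05% to 6.13% (UUO) of the family in wild-type kidneys, but 0.773% to 1.24% (CL) and 0.770% to 1.03% (UUO) in knockout kidneys.

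**Figure D3:**
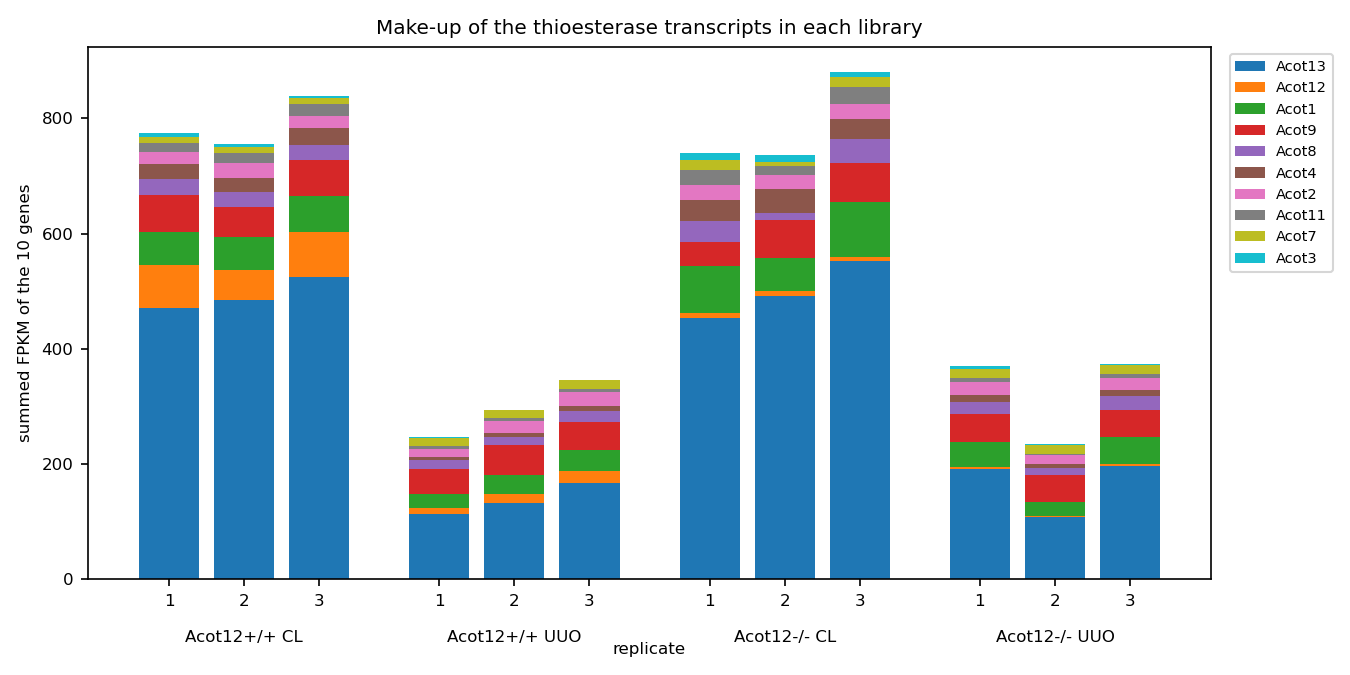
Summed FPKM of the 10 thioesterase genes (y axis, from 0) in each of the 12 libraries, stacked by gene, with replicates 1 to 3 of each group side by side. The CL bars reach 755 to 840 (wild-type) and 737 to 880 (knockout), the UUO bars 246 to 346 and 234 to 374, and Acot13 is the largest block in every bar.

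No member was called by the interaction of genotype and UUO with all libraries in the fit, beside 0.106% of all genes, and 0 members had an unadjusted p under 0.05 in limma, beside 10.5% of all genes. The interaction was largest for Acot12 (0.81, 95% interval -0.04 to 1.66) and lay between -0.27 (Acot7) and 0.25 (Acot8) for the others. The intervals were wide, from -0.55 to 0.57 for Acot9 and from -1.26 to 0.78 for Acot11, so differences in response up to the interval ends were not excluded with 3 libraries a group.

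Across the 12 libraries the 6 members that fell after UUO (Acot1 not with equal totals) and the proximal tubule markers were both lower in UUO than in CL libraries of a genotype. In Acot12+/+ UUO replicates 1, 2 and 3 the markers summed to 363, 486 and 973 FPKM, and all 6 members rose in that order. In Acot12-/- UUO all 6 members were lowest in replicate 2, the library with the lowest marker sum. Within the CL groups they did not always run together: in Acot12+/+ CL Acot3 was highest in the library with the lowest marker sum. Acot12 is the gene knocked out, so its level across the genotypes does not bear on this. Acot12-/- UUO replicate 2 had the lowest sum of these markers, 205 FPKM beside 1231 and 1020 in replicates 1 and 3, and also the lowest Acot11, Acot12 and Acot13 of all libraries. Over all libraries Acot1, Acot3 and Acot4 were lowest in Acot12+/+ UUO replicate 1, which had the lowest marker sum of its own group. In Acot12-/- CL replicate 2 the markers summed to 3316 FPKM, beside 6288 and 4831, and Acot11 and Acot1 were the lowest of their group. Acot3, Acot4, Acot12 and Acot13 were not the lowest of their group in that library.

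**Figure D4:**
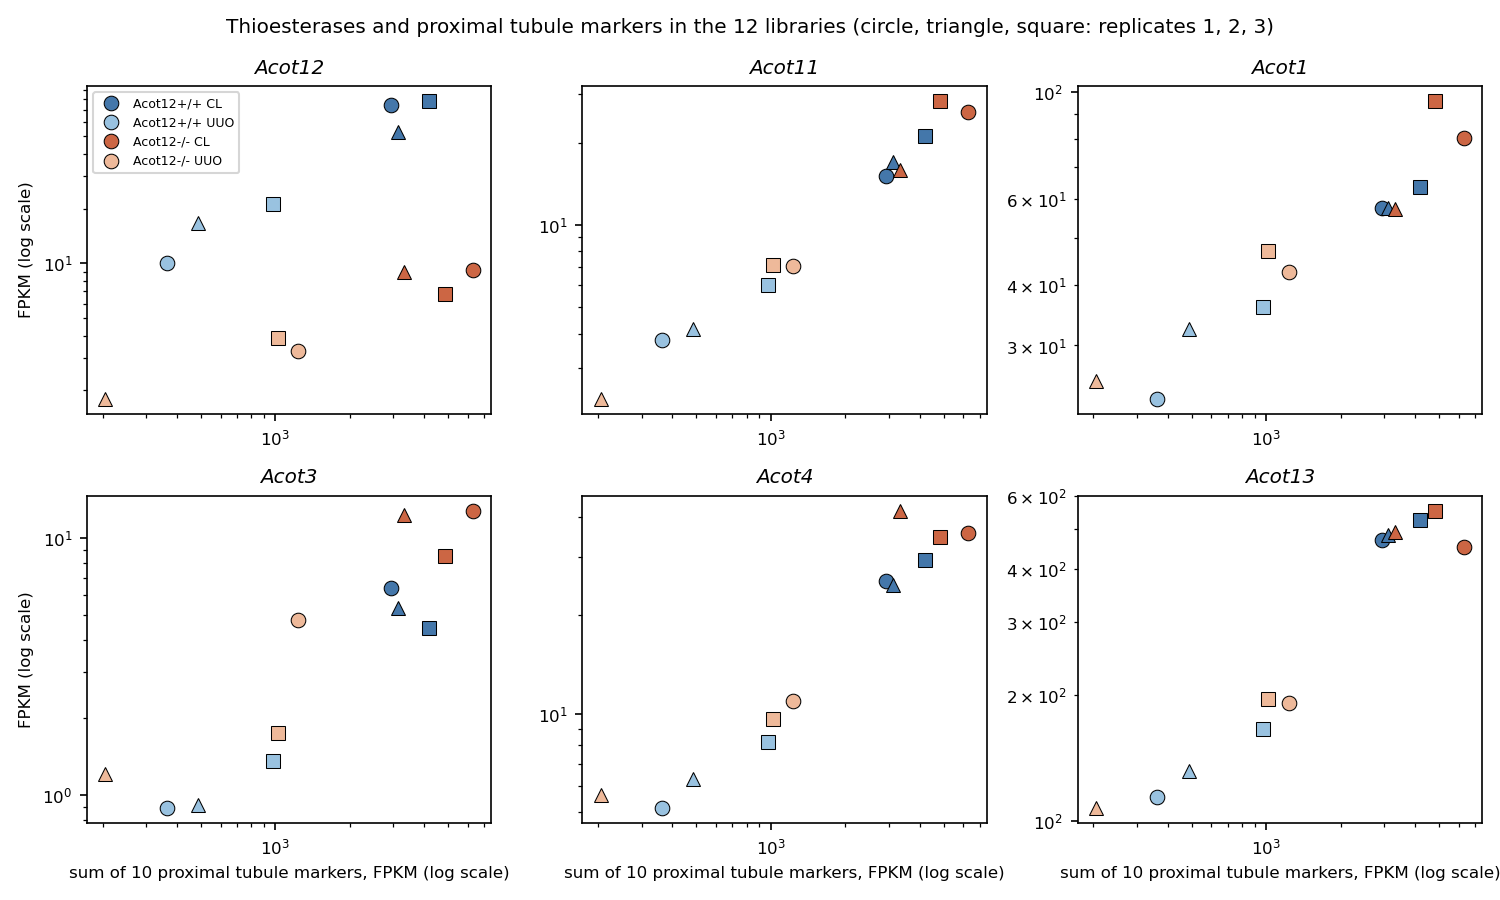
FPKM (y axis, log scale) of the 6 members that fell after UUO against the summed FPKM of 10 proximal tubule markers (x axis, log scale) in the 12 libraries, colored by group, with circles, triangles and squares for replicates 1, 2 and 3. CL and UUO libraries form separate clusters, the UUO libraries with marker sums of 205 to 1231 lying low in both measures, and Acot12 is lower in each Acot12-/- library than in any Acot12+/+ library (Acot1 did not pass the test with libraries scaled to equal totals).

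The genes most like each member were ranked by Pearson correlation of log2(FPKM + 1) among 12772 genes with a mean of at least 1 FPKM. The libraries fall into CL and UUO clusters, so these values describe a shared contrast and are given with no test. Over 12 libraries the genes closest to Acot4 included Agxt2 (0.997), the mitochondrial alanine-glyoxylate aminotransferase of kidney, and L3hypdh (0.996). Acot11 was closest to Fbp1 (0.994), an enzyme of gluconeogenesis, Msra (0.994) and Rbpms2 (0.994). For Acot13 they were Uqcrfs1 (0.997), the Rieske protein of respiratory complex III, Mpc1 (0.997), a subunit of the mitochondrial pyruvate carrier, and Timm9 (0.996). Acot1 was closest to Iah1 (0.990), Msra (0.983) and Ndufa8 (0.981), and Acot3 to Glrx (0.976), Car14 (0.975) and Gm10639 (0.975). Over the 6 Acot12+/+ libraries Acot12 was closest to Naa38 (1.000), Cox11 (0.999) and Clcc1 (0.999), and with so few libraries many genes reach such values.

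The members not called after UUO in the fit of all libraries had other neighbours. Acot7 was closest to Tfip11 (0.995), Pigt (0.971) and Shb (0.964), and Acot8 to Ndufs7 (0.989), Rogdi (0.967) and Fam63a (0.966). For Acot9 the nearest were Tmsb15b1 (0.894), Xrcc6 (0.876) and Pfdn4 (0.872), and for Acot2 0610040F04Rik (0.910), Kcmf1 (0.856) and Alkbh3 (0.854).

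Promoters from 250 bases before to 50 bases after the start site were searched for short motifs on both strands, with the sequences of RefSeq on GRCm38.p6. The table held 11 promoters of 9 members and none of Acot13. The core hexamer of nuclear receptor sites, AGGTCA, occurred in 4 of these 11 and in 16.3% of 32851 promoters. The 4 matches are 3 sites, in Acot4, Acot3 and Acot12, since Acot3 has 2 overlapping promoters that hold the same site. These 3 genes were called lower after UUO, but so were Acot1 and Acot11, whose promoters held 0 such sites, and Acot13, which could not be searched. The sites are shown with 12 bases on either side, 5′ to 3′ on the plus strand, with the hexamer (here as its reverse complement) in capitals.
Acot4 (chr12:84038354-84038383): agccccgaagcaTGACCTttggccggtctg
Acot3 (chr12:84052150-84052179): gttattagctctTGACCTtgtctgtctgct
Acot12 (chr13:91741399-91741428): ctcgtaggacccTGACCTctcacctcctaa

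The other motifs searched were the DR1 element, a pair of relaxed hexamers in direct repeat that can overlap AGGTCA, in 0.381% of all promoters and 0 of the members, CAAAGTCCA, a core of HNF4 sites, in 0.475% and 0, CCAAT in 37.4% and 8 of the 11, and GGCGGGAA, a core of E2F sites, in 2.19% and 0. A match says only that these letters occur in the window, and nothing was measured here on the binding of a factor.

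Among the other enzymes that remove CoA from acyl groups, 7 of 11 genes passed the filter on low values. Of these, 4 were called lower after UUO in Acot12+/+ and 6 in Acot12-/- kidneys and 0 higher, with medians of -0.41 and -0.83. Of all genes 23.9% and 27.2% were called lower. Hibch, the hydrolase of hydroxyisobutyryl-CoA in valine breakdown, fell most, from a mean of 70.8 to 17.0 FPKM in Acot12+/+ (-1.99, SE 0.22, limma adjusted p 3.83e-05) and from 72.3 to 16.7 in Acot12-/- kidneys (-2.04). Them4, a mitochondrial thioesterase, fell as well (-1.03 and -1.36 on the log2 scale). Acot6, the last gene of the type I cluster, was low, at 1.97 to 3.53 FPKM in CL and 1.06 to 1.40 in UUO libraries, and Acot5 and Acot10 had at most 0.252 FPKM in any library.

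Of the 19 acyl-CoA synthetases tested (of 24), which run the opposite reaction, 11 were called lower, 2 higher and 6 not at all after UUO in each genotype, beside 23.9% and 27.2% of all genes called lower, with medians of -0.92 in Acot12+/+ and -1.17 in Acot12-/- kidneys. Acsbg1 and Slc27a3, which activate long and very long chains, were the 2 that rose, to means of 1.70 and 4.54 FPKM in Acot12+/+ UUO. Of the 13 genes of CoA synthesis and breakdown, 10 were called lower and 0 higher in each genotype (medians -1.46 and -1.53), among them Pank1, the kinase that starts CoA synthesis (79.0 to 13.9 FPKM in Acot12+/+), and Nudt19, a peroxisomal CoA diphosphatase of kidney (766 to 127 FPKM). Of 5 acyl-CoA binding proteins tested (of 6), 2 were lower in Acot12+/+ and 1 in Acot12-/- kidneys. The shares of all genes above apply to these counts and to those of the CoA genes. With 5 genes, counts this close to those shares give no result for the list. Dbi, the main carrier of acyl-CoA, fell in both genotypes (-1.14 and -0.80).

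Ppara and 21 textbook targets of PPARα gave 21 genes that could be tested, of which 14 were lower and 2 higher after UUO in Acot12+/+ and 15 lower and 2 higher in Acot12-/- kidneys, with medians of -0.94 and -1.46. Of all genes 23.9% were lower and 23.6% higher in Acot12+/+, and 27.2% lower and 26.6% higher in Acot12-/- kidneys. Ppara itself fell from 10.5 to 5.76 FPKM in Acot12+/+ (-0.80, SE 0.21, limma adjusted p 0.00732) and from 16.1 to 4.68 in Acot12-/- kidneys (-1.59, SE 0.21, adjusted p 5.32e-05). Pdk4, an inhibitor of pyruvate dehydrogenase, and Plin2, a lipid droplet coat protein, were the 2 that rose. Of 7 proximal tubule transcription factors, 4 were lower in Acot12+/+ and 3 in Acot12-/- kidneys, beside the same shares of all genes. Hnf4a fell in both genotypes (-1.17 and -1.60).

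Between the genotypes, 5 of the 72 tested genes in these 6 lists were called in CL kidneys, all higher in Acot12-/-, beside 1.12% of all genes called higher there. Acsf2 went from a mean of 3.99 to 10.4 FPKM (1.16, SE 0.22, limma adjusted p 0.0147), Acsl1, a long-chain acyl-CoA synthetase, from 41.5 to 66.6 FPKM (0.66), Pdk4 from 4.16 to 10.1 FPKM (1.05) and Baat, a thioesterase relative that conjugates bile acids, from 0.390 to 1.93 FPKM (1.07). None of these 4 genes overlapped between the genotypes in CL kidneys, beside 8.6% of all genes higher without overlap. They were named because they were called in this comparison, so the lack of overlap adds no support. Leaving out a library changed the number of list genes called from 5 to between 1, without Acot12-/- CL replicate 1, and 21, without Acot12-/- CL replicate 2, and 2 were called when any 1 of the wild-type CL libraries was left out. Ppara (0.57, adjusted p 0.161) and Hnf4a (0.30, adjusted p 0.437) were not called. In UUO kidneys and by the interaction 0 of the 72 genes were called, with 4 at an unadjusted p under 0.05 in each comparison.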

How the data were processed

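Kidney cortex RNA of 12 libraries, 4 groups of 3, was sequenced with a directional NEBNext Ultra II kit on a NovaSeq. Trimming, mapping and normalization by a company preceded the deposit by the authors. The submitters' processing notes name mm10 and edgeR. The aligner is not given in the sources used here. Labels name Trizol and the paper RNAiso Plus for the extraction. The deposited values are FPKM for 23183 symbols, with no counts. The unit was derived from the values, whose smallest steps scale with transcript length, and the depths given are inferred from them. Annotation was GENCODE on GRCm38, the same assembly as mm10.

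Genes at 1 FPKM or more in at least 3 libraries were tested, less 58 listed at 0 beside at least 10 FPKM in the same group, which left 13243. limma 3.58.1 in R 4.3.3 fitted the 4 groups together on log2(FPKM + 1), with a variance trend and Benjamini-Hochberg adjustment over all genes tested. Errors are SD over libraries or limma's SE and 95% intervals. The fit was tested on simulated data. Sequence comparisons used Python 3.11.15 with Biopython 1.88.

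The members and lists were chosen with earlier results of these data known. All 10 members are named. Of other lists, Ppara, Hnf4a and, per comparison, up to 2 called genes that rose most and 2 that fell most could be named, and for each member the 3 genes of highest correlation. Beyond this rule Acot5, Acot6 and Acot10, and genes overlapping a member, were named after their values were seen. Some genes that meet the rule are not reported here.

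The labels number replicates 1 to 3 in each group. Same-numbered CL and UUO libraries deviated together within a genotype (0.13, 0.36 and 0.33 in Acot12+/+, 0.32, 0.19 and 0.32 in Acot12-/- mice), so the numbers were taken to pair the kidneys of a mouse. Differently numbered CL and UUO libraries of a genotype ran from -0.36 to 0.14, and 0.14 lies above the lowest same-numbered value. Libraries of different genotypes, which cannot share a mouse, reached 0.45, so the pairing is uncertain. The labels do not say that the libraries of a group came from separate mice beyond these numbers, and p-values measure the spread between these libraries. Alternatives were a pseudocount of 0.1, no filter, equal totals, median-ratio size factors, no trend, the compared groups alone, the replicate block, keeping the 58 genes, a fold change of at least 2 and leaving out each library.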

Additional observations from a re-analysis of the deposited data

How the results depend on the processing

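The 6 falls after UUO in each genotype kept their direction under every alternative and their call under all but equal totals, which lost Acot1. A fold change of at least 2 as a further condition left 5 of the 6 in Acot12+/+ mice. Members called ran from 6 to 8 in Acot12+/+ and 6 to 7 in Acot12-/- mice when single libraries were left out, from 1 to 2 for genotype in CL kidneys, from 0 to 1 in UUO kidneys and from 0 to 1 by the interaction. In these fits 13183 to 13221 genes were tested. Genes called after UUO ran from 4911 to 8177 in Acot12+/+ and from 5816 to 8388 in Acot12-/- kidneys. For genotype they ran from 187 to 2918 in CL and 0 to 2 in UUO kidneys, and by the interaction from 0 to 899. The highest of these counts, except in UUO kidneys, came without Acot12-/- CL replicate 2. In UUO kidneys 0 members were called with a pseudocount of 0.1, no filter, median-ratio size factors, the genes at 0 kept, only the groups compared, or the replicate block for correlated mice. Of the listed genes, 5 were called for genotype in CL kidneys, but 8 with no filter, 0 with only the groups compared and 1 to 21 without single libraries. By the interaction 1 was called with the replicate block for correlated mice and 0 to 3 without single libraries. The replicate block called Acot8 in Acot12+/+ kidneys with fixed mice and, besides that of Acot12 in UUO kidneys, changed no other call of a member.

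Estimates turned sign with equal totals for Acot2 (0.53) and Acot9 (0.45) after UUO in Acot12+/+, for Acot2 (0.18), Acot8 (0.05) and Acot9 (0.28) after UUO in Acot12-/-, for Acot2 (-0.14), Acot7 (-0.08) and Acot11 (-0.05) between genotypes in UUO kidneys, and for Acot9 by the interaction (-0.17). The median of all genes moved by 0.65, 0.47, -0.15 and -0.18 in these comparisons. The cause was not tested.

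Leaving out single libraries turned only estimates that were not called. After UUO, Acot2 in Acot12+/+ ran from -0.30 to 0.00 and Acot7 in Acot12-/- kidneys from -0.17 to 0.40. Between genotypes in CL kidneys Acot8 ran from -0.32 to 0.50, Acot9 from -0.16 to 0.17 and Acot13 from -0.06 to 0.08, and in UUO kidneys Acot2 from -0.16 to 0.18, Acot9 from -0.09 to 0.02 and Acot11 from -0.11 to 0.54. By the interaction the ranges were -0.26 to 0.20 for Acot1, -0.65 to 0.05 for Acot3, -0.30 to 0.12 for Acot4, -0.27 to 0.55 for Acot8, -0.20 to 0.13 for Acot9 and -0.48 to 0.19 for Acot11. Depth limits Acot3 most, with counting errors of up to 13% in UUO libraries.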
